A study of Mus musculus with 96 samples.

Results

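Ezh1, Ezh2, Eed, Suz12, Jarid2, Mtf2, Phf19, Aebp2, Rbbp4 and Rbbp7, which encode subunits of Polycomb repressive complex 2 (PRC2), were followed through the 7 RNA-seq count tables and 14 ChIP-seq peak lists of a study of RYBP in mouse embryonic stem cells (ESCs). The members were taken by gene symbol and not by their values, and they are 10 of the 37620 genes counted, 28219 of which had a read in at least 1 table. Each table compared 2 libraries of a perturbed group with 2 control libraries, so every mean rests on n = 2. Rybp-floxed R7.15 ESCs (Rosa26::CreERT2, in which tamoxifen activates Cre) were the Rybp+/+ control. Rybp-/- ESCs were made from them with 5 µM 4-OHT for 4 days, so that 4-OHT and loss of Rybp came together. R1 ESCs carried an empty vector (shEV), an shRNA against Rybp (shRybp) or an shRNA against Wdr5 (shWdr5), and both knockdowns were set against shEV libraries that were taken as the same, counted separately in each table (the Wdr5 table heads them EV). Other R1 ESCs carried the TF-AA mutation, with WT ESC as control. R7.15 ESCs of the genotype RYBPfl/fl Rosa26::CreERT2 received 4-OHT, which deletes the floxed Rybp, in both groups of a further table, and carried either WT RYBP overexpression (WT.RYBP) or RYBP with the 21aa deletion (RYBP phase disruption). J1 ESCs with Tet on.RYBP were given DOX or vehicle, and the rTRS line with a DOX-induced Rybp_Stat3 integration was given DOX or left as NTC. All ESCs were grown with serum. Peak lists also came from ESCs with an shRNA against Stat3 (shStat3), set beside shEV, and from ESCs with the Rybp_Stat3 integration with DOX (DOX+) or without it (DOX-). Each line stands for 1 derivation, and nothing in the labels says that the libraries of a group came from separate cultures, so the p-values below measure the spread between these libraries, which may be technical. An exact permutation test of 2 libraries against 2 cannot give a p under 0.333, and tests were therefore made with a model fitted across all genes of a table.

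PRC2 methylates lysine residues of histone H3 (H3K27) and so keeps developmental genes silent in ESCs. Its catalytic subunit is EZH2 or its paralogue EZH1, which are active only together with EED, which binds methylated H3K27, and SUZ12, the scaffold. RBBP4 and RBBP7 are histone-binding proteins that PRC2 shares with the CAF-1, NuRD and SIN3 complexes. Accessory subunits divide PRC2 into 2 forms: PRC2.1 holds a Polycomb-like protein such as MTF2 or PHF19, and PRC2.2 holds JARID2 and AEBP2. RYBP belongs to PRC1, the complex that ubiquitinates histone H2A, and WDR5 is a subunit of the COMPASS complexes, which methylate histone H3 at promoters.

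Between 14512857 and 81049618 reads fell on genes in a library. All 10 PRC2 members passed the filter on low counts in every table, and their lowest count in a library was 79. Rybp had 110.4 and 110.2 CPM (counts scaled by library size) in Rybp+/+ ESCs and 24.8 and 25.0 in Rybp-/- ESCs, and it fell from 85.7 and 86.4 to 35.8 and 36.6 CPM after Rybp knockdown. Wdr5 fell from 349.9 and 343 to 60.0 and 58.2 CPM in shWdr5 ESCs, and Rybp rose from 135 and 145 to 522 and 535 CPM with DOX in the J1 line. Gene counts cannot show the TF-AA mutation or the 21aa deletion, so the labels of those groups were not checked. Rybp itself had 749 and 753 CPM in WT.RYBP and 662 and 626 with the 21aa deletion (log2 fold change -0.22, standard error 0.041, edgeR BH-adjusted p = 6.8e-05). In the rTRS line Rybp had 113 and 110.5 CPM in the NTC libraries and 102 and 99.8 in those labelled DOX (log2 fold change -0.15, standard error 0.065, edgeR BH-adjusted p = 0.0762), which goes against the label, while Stat3 had 159 and 172 CPM in NTC and 191 and 188 in those labelled DOX (log2 fold change 0.20, standard error 0.065, edgeR BH-adjusted p = 0.0259). These libraries are therefore called the libraries labelled DOX. All 10 pluripotent cell markers had reads in every table, and their summed level was at least 4290 CPM in each library.

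In control ESCs the PRC2 genes stood at very unequal levels, compared here as CPM per kb of the gene length given beside the counts (for the RYBP overexpression table, the length given in the other tables). Rbbp7 and Eed took the first places in all 7 tables, with 82.4 to 161 CPM per kb for Rbbp7 and 78.6 to 169 for Eed. Suz12 (35.5 to 86.1 CPM per kb), Jarid2 (51.4 to 83.0), Mtf2 (34.0 to 85.6), Rbbp4 (43.9 to 65.9) and Ezh2 (27.0 to 40.8) followed. Their order changed between tables, and Suz12 overlapped its neighbour Mtf2 in the controls of 4 tables and its neighbour Rbbp4 in 2, whereas Ezh2 was the lowest of these genes in every table. Aebp2 (8.88 to 26.0 CPM per kb), Ezh1 (3.05 to 8.10) and Phf19 (1.83 to 4.46) came last, in this order and without overlap in all 7 tables. Levels are not compared between tables as a result, since lines and counting differ between them.

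**Figure D1:**
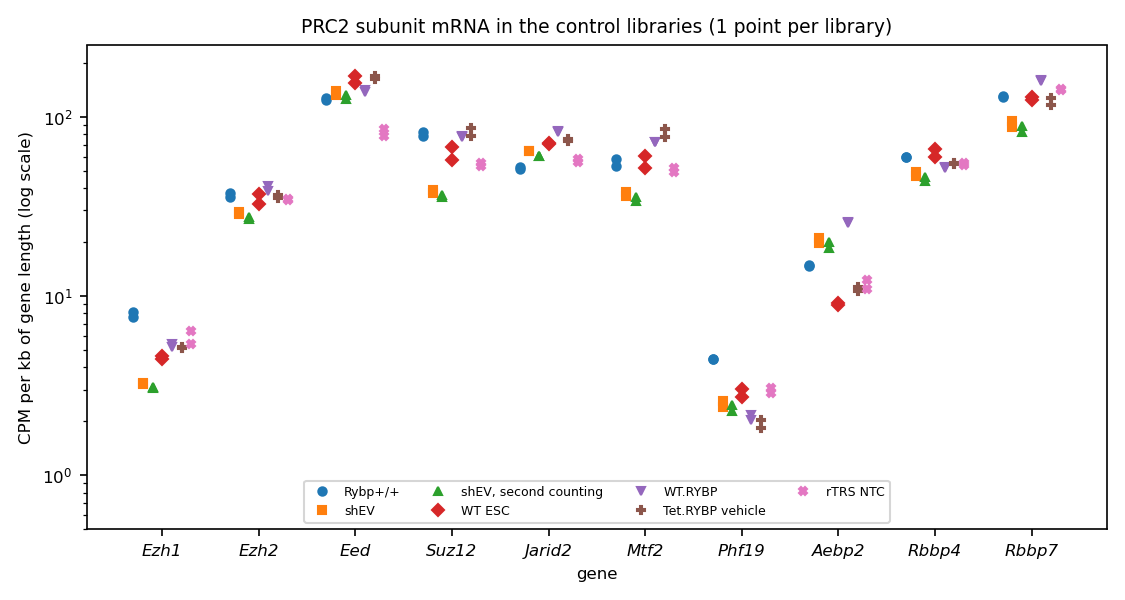
Level of each PRC2 gene in the control libraries, in CPM per kb of gene length on a log axis, 1 point per library and 1 colour per table. Rbbp7 and Eed lie highest and Phf19 lowest in every table, and Ezh1 lies below Ezh2 throughout.

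Over the 7 tables, 70 changes of PRC2 members were tested with the quasi-likelihood test of edgeR, and p-values were adjusted after Benjamini and Hochberg over all genes of the table (the edgeR BH-adjusted p). Of these changes, 45 had an adjusted p under 0.05, with 19 higher and 26 lower than the control. In Rybp-/- ESCs 7 members changed (4 higher, 3 lower), where 45.5% of all 16955 genes tested changed (22.8% higher, 22.7% lower). Of the changed genes 50.2% were higher, and 62.1% under upper-quartile scaling. After Rybp knockdown 8 members changed (2 higher, 6 lower), where 52.7% of 16538 genes did (26.8% higher, 26.0% lower). Wdr5 knockdown changed 8 members (4 higher, 4 lower), in a table where 63.0% of 15143 genes changed (31.5% higher, 31.5% lower). The TF-AA mutation changed 3 members, all lower, where 30.5% of 14456 genes changed (14.4% higher, 16.1% lower). There 47.3% of the changed genes were higher, and 62.4% under upper-quartile scaling, where 2 members were called, 1 of them among the 3. Without 1 library at a time, 1 to 6 members were called in this table, with 1 without either TF-AA library and 6 without the first WT ESC library. RYBP phase disruption changed 6 (4 higher, 2 lower), where 33.0% of 14575 genes did (16.1% higher, 17.0% lower). RYBP overexpression changed 5 members (3 higher, 2 lower) in the table with the fewest changes, 6.02% of 14937 genes (3.63% higher, 2.39% lower). These calls rested on both DOX libraries: without the first 0 members were called and without the second 1, and over the libraries left out the genes called ranged from 406 to 1566. In the libraries labelled DOX of the rTRS line, 8 members changed (2 higher, 6 lower), where 43.4% of 16291 genes changed (23.0% higher, 20.4% lower).

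Most of these changes were small. The median absolute log2 fold change of the members was 0.17 in Rybp-/- ESCs against 0.23 for all genes tested, 0.22 against 0.34 after Rybp knockdown and 0.29 against 0.40 after Wdr5 knockdown. It was 0.14 against 0.23 with the TF-AA mutation and 0.12 against 0.21 with RYBP phase disruption. Without the first WT ESC library the TF-AA median of the members was 0.21, and without the first phase disruption library that of the phase disruption table was 0.08. The members' median was above that of all genes only with RYBP overexpression (0.17 against 0.14) and in the libraries labelled DOX (0.42 against 0.34). Only Phf19 after Wdr5 knockdown and Jarid2 in the libraries labelled DOX changed by more than 1 on the log2 scale. When a fold change of at least 1.2 was asked of each gene, 1, 4, 4, 1, 3, 0 and 6 members passed the edgeR test, in the order of tables above, beside 17.9, 30.4, 41.9, 16.0, 13.0, 1.16 and 25.8% of all genes. For RYBP overexpression 1 member passed that test at an unadjusted p under 0.05.

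**Figure D2:**
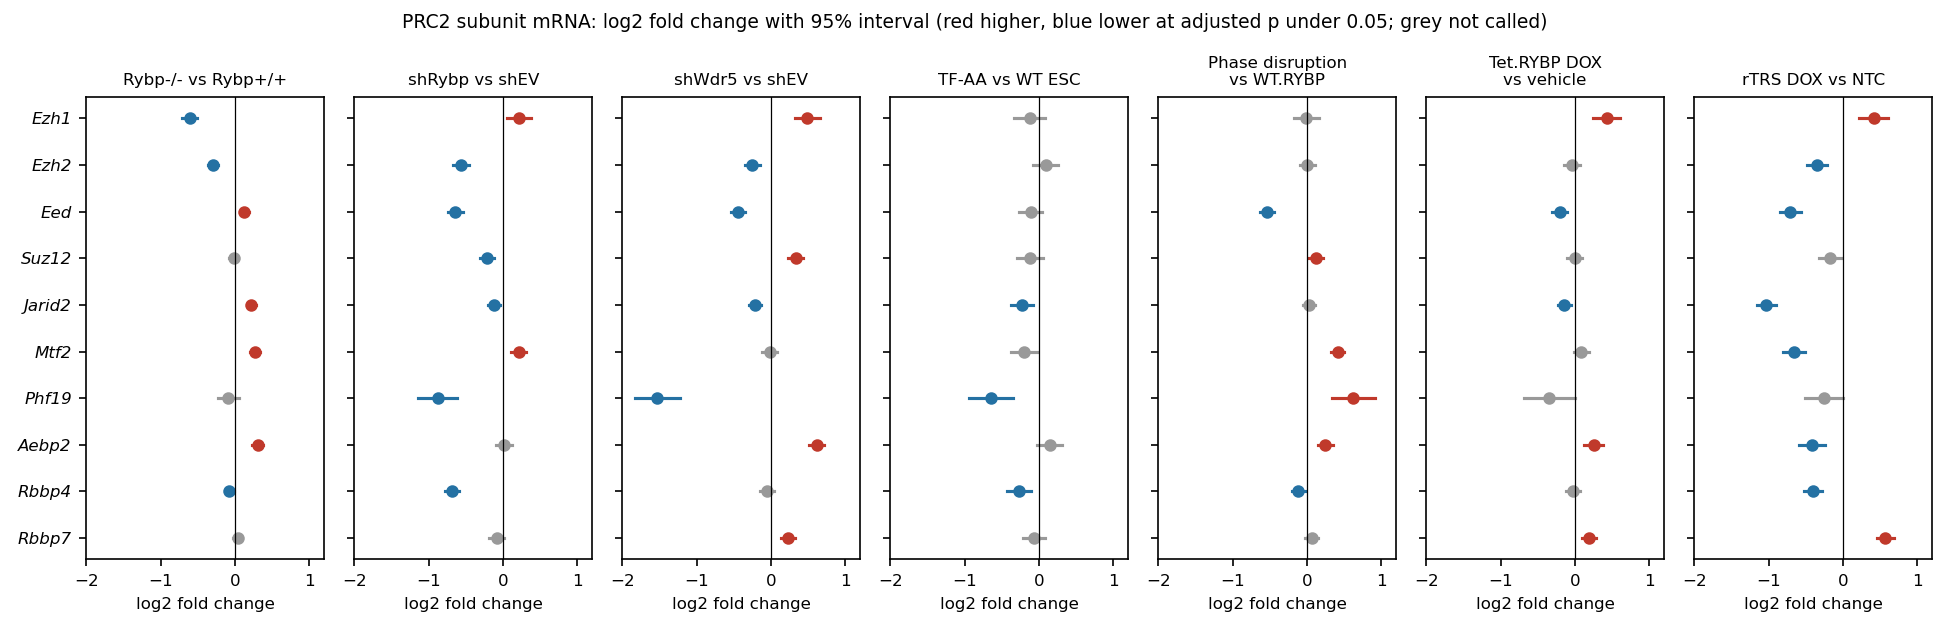
Log2 fold change of each PRC2 gene in each of the 7 comparisons, perturbed group against control, with the 95% interval as a horizontal line. Red points are higher and blue points lower at an edgeR BH-adjusted p under 0.05, and grey points did not pass. Phf19 after Wdr5 knockdown (-1.53) and Jarid2 in the rTRS line (-1.03) lie farthest from 0.

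Markers of other cell types also moved in some tables. In the rTRS line the sum of 8 trophectoderm markers was 251 to 262 CPM in NTC and 991 to 1068 in the libraries labelled DOX, the sum of 6 mesoderm markers 12.9 to 14.6 and 58.3 to 63.8 CPM, and the sum of 10 pluripotent cell markers 6887 to 7154 and 4290 to 4535 CPM. All markers of these 3 lists had reads, and 6 of 7 trophectoderm markers tested were higher. The neural sum was 157 to 167 CPM in NTC and 103 to 111 in the libraries labelled DOX, and the primitive endoderm sum 50.5 to 54.6 and 30.1 to 32.8 CPM. Single neural markers went both ways there, with 2 of 4 tested called higher and 2 lower. After Rybp knockdown the trophectoderm sum went from 130 to 143 CPM in shEV to 332 to 348, with 6 of 8 markers higher, while the fibroblast sum went from 29.0 to 29.7 to 52.5 to 52.6 CPM, the neural sum from 312 to 325 to 236 to 238 CPM, and the pluripotent sum from 9343 to 9648 to 8005 to 8041 CPM. Of 4 neural markers tested in that table, 2 were called higher and 2 lower. The primitive endoderm sum was 66.0 to 69.4 CPM in shEV and 84.8 to 86.9 in shRybp ESCs, with 5 of 7 tested markers higher and 1 lower. After Wdr5 knockdown the trophectoderm sum went from 123 to 135 CPM to 263 to 275, the neural sum from 294 to 307 to 179 to 190.1, and the pluripotent sum from 8787 to 9080 to 7353 to 7417. Of 4 neural markers tested after Wdr5 knockdown, 1 was called higher and 2 lower. With RYBP overexpression the neural sum was 74.9 to 76.6 CPM with DOX against 101 to 115 with vehicle, with Tubb3 and Map2 lower. In Rybp-/- ESCs the 8 fibroblast markers summed to 70.0 to 70.8 CPM in the control and 140 to 148 CPM in the knockout, with 7 higher, and with the TF-AA mutation they summed to 37.2 to 37.7 CPM against 15.7 to 17.3. The trophectoderm sum was 156 to 159 CPM in Rybp+/+ and 187 to 196 in Rybp-/- ESCs, with 7 of 8 markers higher. In the knockout 3 of 4 tested neural markers were higher and 1 lower, and 3 of 7 primitive endoderm markers were higher. Of 4 mesoderm markers tested there, 1 was called, lower. Primitive endoderm markers summed to 93.3 to 96.8 CPM in WT ESC and 138 to 146 in the TF-AA mutant. With RYBP phase disruption the trophectoderm sum was 509 to 534 CPM against 391 to 399 in WT.RYBP, with 5 of 7 tested markers higher, and the fibroblast sum 381 to 403 against 469 to 469. The mesoderm sum was 20.4 to 20.9 CPM against 33.0 to 34.2 there. Of its 4 markers tested 1 was called, lower, which was T, with a mean of 6.79 CPM against 17.7. The part of these markers in the changes of PRC2 members was not tested, and fewer cells of a type and less RNA per cell cannot be told apart in bulk libraries.

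Ezh2 was lower in 4 of the 7 tables and higher in none. Its paralogue Ezh1 was lower in Rybp-/- ESCs alone among the tables, and was higher in 4 others. Both genes lie on the minus strand of mm9, Ezh2 at chr6:47480273-47545340 and Ezh1 at chr11:101052429-101087777. The 300 bases before the annotated 5′ end of each are shown because the genes moved in opposite directions in 3 tables and because promoter peaks were called over both windows (below). E2F factors, which drive genes at the start of DNA replication, are known to bind the Ezh2 promoter. The word TTCCCGCC, searched on both strands after this sequence had been seen, is in capitals. It occurs at positions -72 and -39 from the 5′ end of Ezh2, not in the window of Ezh1, and in 2.64% of the windows of 22374 protein-coding genes. The word was picked from the Ezh2 window, so its presence there was set in advance and is not a test. Of the words of the E2F type searched below, the Ezh2 window holds 0.
Ezh2, chr6:47545341-47545640, minus strand: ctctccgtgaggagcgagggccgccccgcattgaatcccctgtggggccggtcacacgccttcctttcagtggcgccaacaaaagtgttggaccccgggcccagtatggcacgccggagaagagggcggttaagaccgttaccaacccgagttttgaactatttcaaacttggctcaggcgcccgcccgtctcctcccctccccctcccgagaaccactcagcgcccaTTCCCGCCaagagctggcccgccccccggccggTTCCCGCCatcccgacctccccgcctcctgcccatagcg
Ezh1, chr11:101087778-101088077, minus strand: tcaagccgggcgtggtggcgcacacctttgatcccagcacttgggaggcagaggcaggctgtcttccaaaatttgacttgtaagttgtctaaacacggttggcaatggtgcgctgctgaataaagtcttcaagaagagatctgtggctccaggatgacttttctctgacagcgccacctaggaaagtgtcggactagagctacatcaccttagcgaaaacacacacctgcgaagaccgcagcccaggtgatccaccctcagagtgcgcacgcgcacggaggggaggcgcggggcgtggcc

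After Rybp knockdown Ezh2 stood at 127 and 117 CPM, against 182 and 178 CPM with shEV (log2 fold change -0.56, standard error 0.052, edgeR BH-adjusted p = 3.89e-08). Every shRybp library was below every shEV library. In Rybp-/- ESCs the fall was from 234 and 222 to 188 and 184 CPM (log2 fold change -0.30, standard error 0.035, edgeR BH-adjusted p = 1.37e-08), again without overlap between the groups. Wdr5 knockdown lowered Ezh2 from 171 and 168 to 141 and 143 CPM (log2 fold change -0.25, standard error 0.048, edgeR BH-adjusted p = 8.52e-05). In the libraries labelled DOX it stood at 164 and 173 CPM against 215 and 213 in NTC (log2 fold change -0.35, standard error 0.062, edgeR BH-adjusted p = 0.000587), below both controls. The other perturbations left Ezh2 inside or close to the range of its controls. Its log2 fold change was 0.09 with the TF-AA mutation (95% interval -0.07 to 0.26, here and below not adjusted for the number of genes), 0.01 with RYBP phase disruption (-0.09 to 0.10) and -0.04 with RYBP overexpression (-0.15 to 0.07).

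Ezh1 made the largest change of any member in Rybp-/- ESCs. It had 56.6 and 60.3 CPM in Rybp+/+ ESCs and 37.7 and 38.9 in Rybp-/- ESCs (log2 fold change -0.61, standard error 0.051, edgeR BH-adjusted p = 7.59e-12). In R1 ESCs the direction was the other one: Ezh1 had 22.7 and 23.0 CPM in shEV and 30.8 and 33.4 in shWdr5 ESCs (log2 fold change 0.49, standard error 0.081, edgeR BH-adjusted p = 1.53e-05). It also rose from 38.8 and 38.3 to 56.1 and 47.7 CPM with RYBP overexpression (log2 fold change 0.43, standard error 0.091, edgeR BH-adjusted p = 0.00249) and stood at 40.2 and 47.4 CPM in NTC and 59.9 and 56.9 in the libraries labelled DOX (log2 fold change 0.41, standard error 0.090, edgeR BH-adjusted p = 0.00228). None of these groups overlapped their controls. The rise after Rybp knockdown, from 24.1 and 24.3 to 27.5 and 28.9 CPM (log2 fold change 0.22, standard error 0.079, edgeR BH-adjusted p = 0.0266), was lost whichever of the 4 libraries was left out and under DESeq2 (adjusted p = 0.126). The rise with RYBP overexpression was lost without the first DOX library (log2 fold change 0.31, edgeR BH-adjusted p = 0.248). With the TF-AA mutation Ezh1 had a log2 fold change of -0.13 (95% interval -0.33 to 0.08), and with RYBP phase disruption -0.01 (-0.17 to 0.16).

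**Figure D3:**
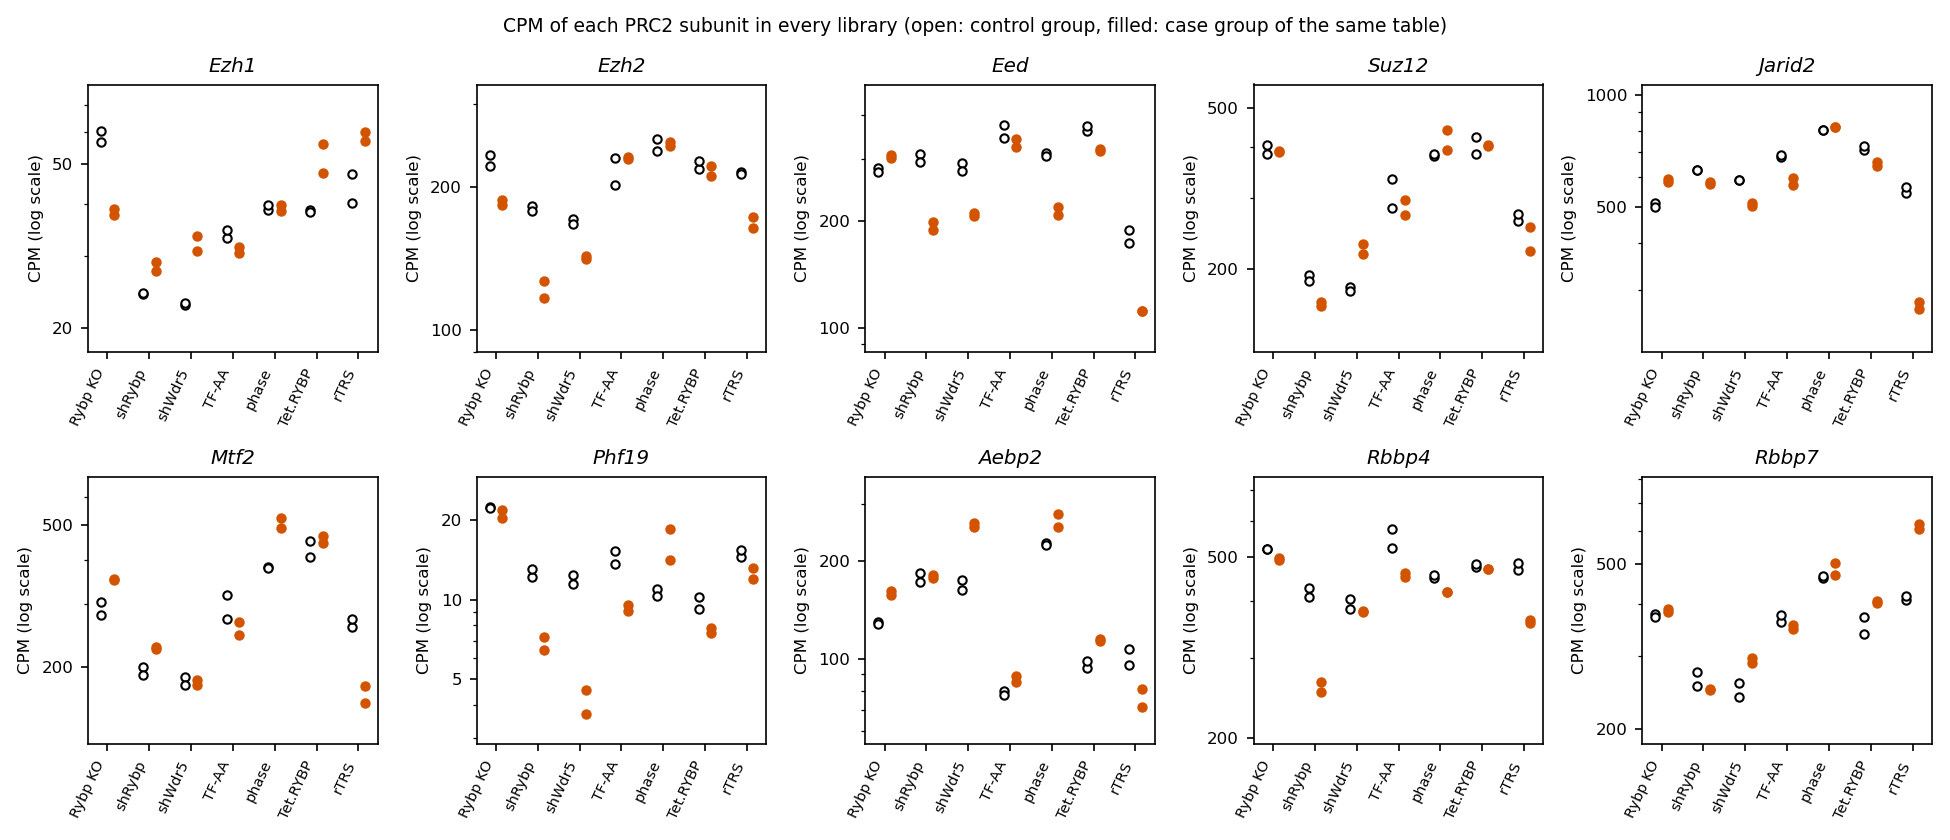
CPM of each PRC2 gene in each library, 1 panel per gene with its own log axis, control libraries (open) beside perturbed libraries (filled) for the 7 tables. Ezh2 is lower in the perturbed libraries of the Rybp knockout, Rybp knockdown, Wdr5 knockdown and rTRS tables, and Ezh1 is lower in those of the Rybp knockout and TF-AA tables, where only the former passed the test.

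Eed fell in 5 tables and rose in 1. The gene extends over chr7:97103166-97129493 on the minus strand. It had 310.1 and 294 CPM in shEV and 199 and 189 in shRybp ESCs (log2 fold change -0.64, standard error 0.048, edgeR BH-adjusted p = 2.53e-09), and 292 and 277 against 211 and 207 CPM in the Wdr5 table (log2 fold change -0.44, standard error 0.046, edgeR BH-adjusted p = 1.67e-08). With RYBP phase disruption it was 219.5 and 208 CPM against 312 and 307 in WT.RYBP (log2 fold change -0.53, standard error 0.047, edgeR BH-adjusted p = 4.53e-11), the largest fall of a member in that table. In the libraries labelled DOX it was 111 and 112 CPM against 189.6 and 174 (log2 fold change -0.71, standard error 0.066, edgeR BH-adjusted p = 2.77e-06). The groups of these tables were far apart. Smaller changes were a fall with RYBP overexpression, from 361 and 373 to 320.4 and 317 CPM (log2 fold change -0.20, standard error 0.048, edgeR BH-adjusted p = 0.00671), and a rise in Rybp-/- ESCs from 284 and 276 to 308 and 303 CPM (log2 fold change 0.13, standard error 0.032, edgeR BH-adjusted p = 0.00126). The fall with overexpression was lost without either DOX library, and the rise without the first Rybp-/- library (edgeR BH-adjusted p = 0.0561). The TF-AA mutation gave -0.11 (95% interval -0.27 to 0.05), and -0.18 without the first WT ESC library (edgeR BH-adjusted p = 0.0455).

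Suz12, at chr11:79806608-79847625 on the plus strand, passed the test in 3 tables, with 2 rises and 1 fall. It rose from 180.0 and 176 to 230.1 and 218 CPM after Wdr5 knockdown (log2 fold change 0.33, standard error 0.048, edgeR BH-adjusted p = 2.21e-06), while Eed and Ezh2 fell in the same libraries, and it fell from 192 and 187 to 165 and 162 CPM after Rybp knockdown (log2 fold change -0.21, standard error 0.048, edgeR BH-adjusted p = 0.000907). A rise with RYBP phase disruption, from 381 and 385 to 441 and 395 CPM (log2 fold change 0.13, standard error 0.047, edgeR BH-adjusted p = 0.0379), was lost under DESeq2 (adjusted p = 0.149), without the filter on low counts, and without 3 of the 4 libraries, among them the first phase disruption library (edgeR BH-adjusted p = 0.496). In the other tables its log2 fold change was -0.02 in Rybp-/- ESCs (95% interval -0.08 to 0.05), -0.12 with the TF-AA mutation (-0.29 to 0.06), -0.17 in the libraries labelled DOX (-0.33 to -0.02) and within 0.10 of 0 with RYBP overexpression (-0.10 to 0.10). Without the first WT ESC library the TF-AA value was -0.24 (edgeR BH-adjusted p = 0.00518). The value in the libraries labelled DOX passed under upper-quartile scaling, without the filter on low counts and without the second of these libraries (-0.27, edgeR BH-adjusted p = 0.0078). The 300 bases before the 5′ ends of Suz12 and Phf19 are shown because they were the only members' windows with a word of the E2F type. The words TTTCCCGC, TTTGGCGC, TTTCGCGC and TTTGCCGC were searched on both strands, and 2.44% of all such windows hold at least 1. TTTCCCGC stands at position -219 of Suz12, and its reverse complement GCGGGAAA at position -158 of Phf19. Some of these words share letters with TTCCCGCC. The STAT word TTCNNNGAA, found in 8.22% of all windows, was in none of the 10.
Suz12, chr11:79806308-79806607, plus strand: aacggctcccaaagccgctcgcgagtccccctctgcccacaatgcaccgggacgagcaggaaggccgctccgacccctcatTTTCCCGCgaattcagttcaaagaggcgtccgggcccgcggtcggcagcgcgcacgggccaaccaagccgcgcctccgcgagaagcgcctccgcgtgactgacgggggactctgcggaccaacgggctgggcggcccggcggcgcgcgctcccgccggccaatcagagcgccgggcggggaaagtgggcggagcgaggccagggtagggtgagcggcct
Phf19, chr2:34769547-34769846, minus strand: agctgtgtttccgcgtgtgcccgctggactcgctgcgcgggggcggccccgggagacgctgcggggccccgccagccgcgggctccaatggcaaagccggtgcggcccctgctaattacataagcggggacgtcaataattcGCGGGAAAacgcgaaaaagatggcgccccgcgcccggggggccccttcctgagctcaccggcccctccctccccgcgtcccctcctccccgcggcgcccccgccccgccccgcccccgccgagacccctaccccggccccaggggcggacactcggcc

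The histone-binding genes Rbbp4 (chr4:128984344-129012614, minus strand) and Rbbp7 (chrX:159198334-159217024, plus strand) did not move together. Rbbp4 was lower in 5 tables and higher in none, and Rbbp7 was higher in 3 and lower in none. Rbbp4 fell from 428 and 408 CPM in shEV to 266 and 253 in shRybp ESCs (log2 fold change -0.69, standard error 0.046, edgeR BH-adjusted p = 4.65e-10), whereas Rbbp7 had 275 and 255 CPM in shEV and 249 and 249 in shRybp (log2 fold change -0.09, standard error 0.048, edgeR BH-adjusted p = 0.143). In the libraries labelled DOX, Rbbp4 stood at 358 and 363 CPM against 469 and 485 in NTC (log2 fold change -0.40, standard error 0.056, edgeR BH-adjusted p = 7.7e-05) and Rbbp7 at 607 and 624 against 409 and 418 (log2 fold change 0.57, standard error 0.054, edgeR BH-adjusted p = 2.96e-06). The groups lay apart for both genes, in opposite directions. Rbbp7 also rose after Wdr5 knockdown, from 258 and 239.6 to 296 and 288 CPM (log2 fold change 0.23, standard error 0.047, edgeR BH-adjusted p = 0.000196), where Rbbp4 had a log2 fold change of -0.05 (95% interval -0.15 to 0.04; under upper-quartile scaling -0.11, edgeR BH-adjusted p = 0.0287). The TF-AA mutation lowered Rbbp4 from 522 and 576 to 452 and 460.4 CPM (log2 fold change -0.27, standard error 0.075, edgeR BH-adjusted p = 0.0083), and this call was lost without either TF-AA library and under upper-quartile scaling (edgeR BH-adjusted p = 0.0524). Falls of Rbbp4 in Rybp-/- ESCs (-0.08, standard error 0.029, edgeR BH-adjusted p = 0.0305) and with RYBP phase disruption (-0.11, standard error 0.043, edgeR BH-adjusted p = 0.0384) were lost under upper-quartile scaling and without single libraries. A rise of Rbbp7 with RYBP overexpression (0.19, standard error 0.049, edgeR BH-adjusted p = 0.0148) was lost without either DOX library. Without the second shEV library Rbbp7 passed as a fall after Rybp knockdown (-0.15, edgeR BH-adjusted p = 0.00904), and under upper-quartile scaling as a rise in Rybp-/- ESCs (0.09, edgeR BH-adjusted p = 0.012).

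Among the subunits of PRC2.2, Jarid2 was lower in 5 tables. Jarid2 extends over 192.2 kb at chr13:44824843-45017012 on the plus strand. Its largest change was in the rTRS line, where it had 544 and 567 CPM in NTC and 266 and 278 in the libraries labelled DOX (log2 fold change -1.03, standard error 0.058, edgeR BH-adjusted p = 2.48e-08). Both labelled DOX libraries were near 1 level and far below both controls. It fell less after Wdr5 knockdown, from 590.1 and 590.1 to 513 and 504 CPM (log2 fold change -0.22, standard error 0.041, edgeR BH-adjusted p = 8.54e-05), and it rose in Rybp-/- ESCs, from 512 and 499 to 583 and 594 CPM (log2 fold change 0.22, standard error 0.029, edgeR BH-adjusted p = 1.66e-07). Falls after Rybp knockdown (-0.12, standard error 0.040, edgeR BH-adjusted p = 0.0186), with the TF-AA mutation (-0.23, standard error 0.072, edgeR BH-adjusted p = 0.0187) and with RYBP overexpression (-0.14, standard error 0.042, edgeR BH-adjusted p = 0.037) were each lost without either library of the perturbed group. Under upper-quartile scaling the fall after Rybp knockdown was -0.06 (edgeR BH-adjusted p = 0.199) and that with the TF-AA mutation -0.15 (edgeR BH-adjusted p = 0.113). With RYBP phase disruption the log2 fold change was 0.02 (95% interval -0.06 to 0.10).

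Aebp2, the other subunit of PRC2.2 (chr6:140570970-140626993, plus strand), rose in 4 tables and was lower only in the libraries labelled DOX. After Wdr5 knockdown it went from 163 and 175 to 263 and 255 CPM (log2 fold change 0.62, standard error 0.049, edgeR BH-adjusted p = 1.78e-10). It rose from 130.3 and 128 to 158 and 162 CPM in Rybp-/- ESCs (log2 fold change 0.30, standard error 0.036, edgeR BH-adjusted p = 1.35e-08) and from 228 and 224 to 280.4 and 255 CPM with RYBP phase disruption (log2 fold change 0.25, standard error 0.049, edgeR BH-adjusted p = 0.000162). In these tables no perturbed library overlapped a control. With RYBP overexpression it had 93.7 and 98.4 CPM with vehicle and 114 and 115 with DOX (log2 fold change 0.25, standard error 0.064, edgeR BH-adjusted p = 0.0127), a call lost without either DOX library. In the libraries labelled DOX of the rTRS line Aebp2 was 71.3 and 81.0 CPM against 95.8 and 108 in NTC (log2 fold change -0.42, standard error 0.082, edgeR BH-adjusted p = 0.00124). After Rybp knockdown the groups overlapped, with 182 and 178 CPM against 172 and 185 in shEV (log2 fold change 0.01, 95% interval -0.09 to 0.12). With the TF-AA mutation the value was 0.14 (-0.02 to 0.31), and 0.22 under upper-quartile scaling (edgeR BH-adjusted p = 0.0399).

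Mtf2 and Phf19 encode Polycomb-like proteins of PRC2.1. Mtf2 (chr5:108494693-108538023, plus strand) rose in Rybp-/- ESCs from 304 and 280.4 to 350.4 and 352 CPM (log2 fold change 0.27, standard error 0.034, edgeR BH-adjusted p = 7.77e-08) and after Rybp knockdown from 201 and 190.5 to 227 and 225 CPM (log2 fold change 0.21, standard error 0.047, edgeR BH-adjusted p = 0.00103). It was the only member that rose in both. It also rose with RYBP phase disruption, from 382 and 379 to 524 and 489 CPM (log2 fold change 0.41, standard error 0.044, edgeR BH-adjusted p = 3.7e-09). In the libraries labelled DOX it was lower, at 159 and 178 CPM against 259 and 272 in NTC (log2 fold change -0.66, standard error 0.069, edgeR BH-adjusted p = 6.6e-06). After Wdr5 knockdown its libraries overlapped the controls (log2 fold change -0.02, 95% interval -0.12 to 0.08). The values with the TF-AA mutation were 273 and 319 CPM in WT ESC and 246 and 267 in the mutant (log2 fold change -0.20, standard error 0.083, edgeR BH-adjusted p = 0.0662), and this passed without the first WT ESC library (-0.32, edgeR BH-adjusted p = 0.000124) and without the filter on low counts (edgeR BH-adjusted p = 0.0279). With RYBP overexpression the log2 fold change was 0.09 (-0.01 to 0.19), and 0.16 without the second vehicle library (edgeR BH-adjusted p = 1.98e-05).

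Phf19 (chr2:34749277-34769546, minus strand), the member with the lowest level, also had the widest range of changes. After Wdr5 knockdown it had 3.69 and 4.56 CPM against 11.5 and 12.4 in shEV (log2 fold change -1.53, standard error 0.15, edgeR BH-adjusted p = 4.39e-09). After Rybp knockdown it fell from 12.2 and 13.0 to 7.19 and 6.46 CPM (log2 fold change -0.88, standard error 0.12, edgeR BH-adjusted p = 8.75e-06), and with the TF-AA mutation from 13.7 and 15.3 to 9.04 and 9.55 CPM (log2 fold change -0.64, standard error 0.14, edgeR BH-adjusted p = 0.00129). The falls in R1 ESCs were thus larger than the spread within each group, and they passed under every scaling, filter, block and left-out library tried and under DESeq2. With RYBP phase disruption Phf19 rose, from 10.9 and 10.3 CPM to 14.2 and 18.6 (log2 fold change 0.62, standard error 0.14, edgeR BH-adjusted p = 0.000694). The second phase disruption library was the higher, and without it the log2 fold change was 0.41 (edgeR BH-adjusted p = 0.064). Phf19 did not pass the test in Rybp-/- ESCs (-0.09, 95% interval -0.23 to 0.05), with RYBP overexpression (-0.35, -0.69 to -0.00) or in the libraries labelled DOX (-0.26, -0.51 to -0.00), although the last passed under upper-quartile scaling (edgeR BH-adjusted p = 0.0426).

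Other genes overlap the annotated span of 7 members on the opposite strand: Gm17629 at Ezh2, Gm16706 at Suz12, SNORA61 at Jarid2, Tmed5 at Mtf2, Gm13448 at Phf19, Sync and Gm17525 at Rbbp4, and Txlng at Rbbp7. Whether reads were counted by strand is not given in the sources used here, so reads from the overlapped stretches may have been lost from or added to these members.

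Loss of Rybp by 4-OHT and its knockdown were then compared gene by gene, because these tables share no library. The test was the difference between both log2 fold changes in 1 edgeR model. It passed for 9 of the 10 members, where 40.5% of 18203 genes passed (22.2% with the higher value in the knockout). Eed rose in Rybp-/- ESCs and fell in shRybp ESCs, and its difference was 0.79 (standard error 0.056, edgeR BH-adjusted p = 1.22e-10). Ezh1 went the other way, with a difference of -0.80 (standard error 0.089, edgeR BH-adjusted p = 1.36e-07). The values were also higher in the knockout for Phf19 (0.81), Rbbp4 (0.64), Jarid2 (0.36), Aebp2 (0.32), Ezh2 (0.29), Suz12 (0.22) and Rbbp7 (0.15). The difference for Rbbp7 had an edgeR BH-adjusted p of 0.0356, which rose to 0.0589 without the filter on low counts. Its call was lost in 8 of 10 alternatives, mostly those with a library left out, so Rbbp7 is the least secure of the 9. For Mtf2 the difference was 0.08 (standard error 0.059, edgeR BH-adjusted p = 0.306). The tables differ in ESC line, in 4-OHT and in the way Rybp was lowered, and these cannot be told apart.

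**Figure D4:**
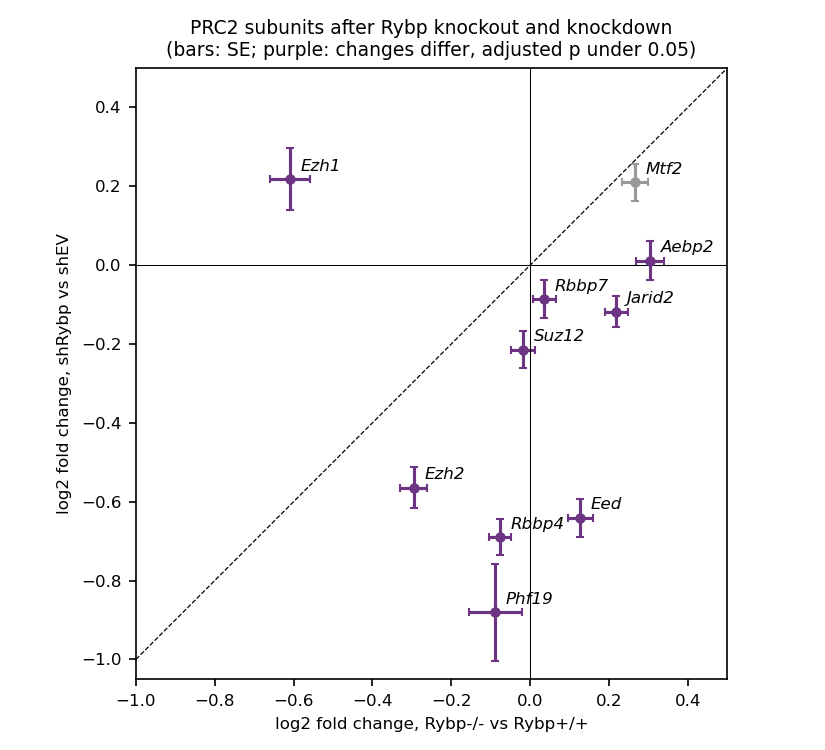
Log2 fold change after Rybp knockdown in R1 ESCs (vertical) against log2 fold change in Rybp-/- R7.15 ESCs (horizontal), 1 point per PRC2 gene with bars of 1 standard error. The dashed line marks equal changes and purple points differ at an edgeR BH-adjusted p under 0.05; Ezh1 lies above the line and the others below it.

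Genes that act beside the members were described from lists of known function. The shares of all genes called in each table, given above with the members' counts, are the background of these lists too. They were 45.5% in Rybp-/- ESCs, 52.7% after Rybp knockdown, 63.0% after Wdr5 knockdown, 30.5% with the TF-AA mutation, 33.0% with RYBP phase disruption, 6.02% with RYBP overexpression and 43.4% in the libraries labelled DOX. Of 6 other PRC2 accessory genes, 4 were higher and 1 lower in Rybp-/- ESCs, 1 higher and 3 lower after Rybp knockdown, and 4 higher and 2 lower after Wdr5 knockdown. Epop, which brings elongin to PRC2.1, had 109 and 129.5 CPM in Rybp+/+ and 195 and 201 in Rybp-/- ESCs (log2 fold change 0.73, standard error 0.046, edgeR BH-adjusted p = 9.53e-15). It fell in both shRNA tables, from 2317 and 3082 to 1309 and 1083 CPM after Rybp knockdown (log2 fold change -1.17, standard error 0.090, edgeR BH-adjusted p = 3.6e-09) and from 2194 and 2919.6 to 608 and 635 CPM after Wdr5 knockdown (log2 fold change -2.04, standard error 0.076, edgeR BH-adjusted p = 2.13e-16). Phf1, another Polycomb-like gene, rose after Wdr5 knockdown from 17.3 and 17.1 to 42.3 and 40.3 CPM (log2 fold change 1.27, standard error 0.080, edgeR BH-adjusted p = 3.28e-12), in the libraries in which Phf19 fell. Lcorl, whose product can replace other accessory subunits of PRC2.1, fell from 27.4 and 25.5 to 12.6 and 12.4 CPM in Rybp-/- ESCs (log2 fold change -1.08, standard error 0.072, edgeR BH-adjusted p = 4.24e-14). Among the remaining comparisons, 0 were higher and 2 lower with the TF-AA mutation, 3 higher and 2 lower with RYBP phase disruption, 0 higher and 1 lower with RYBP overexpression, and 2 higher and 2 lower in the libraries labelled DOX. DESeq2 called 0 higher and 1 lower with the TF-AA mutation, 1 and 2 with RYBP phase disruption, and 1 and 1 in the libraries labelled DOX.

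DNA replication and cell cycle genes were called lower after Rybp knockdown, all 16 of them, where 26.0% of all genes were lower, with Ccne1, which encodes cyclin E, at 95.4 and 90.4 CPM against 223 and 206 in shEV (log2 fold change -1.21, standard error 0.054, edgeR BH-adjusted p = 1.84e-12). Of the 16, 12 were called in Rybp-/- ESCs, after Wdr5 knockdown and with RYBP phase disruption, where 45.5, 63.0 and 33.0% of all genes were called. With the TF-AA mutation 18.8% of the 16 were called beside 30.5% of all genes, with RYBP overexpression 6.25% beside 6.02%, and in the libraries labelled DOX 56.2% beside 43.4%. In Rybp-/- ESCs 9 were lower and 3 higher, after Wdr5 knockdown 7 lower and 5 higher, with the TF-AA mutation 3 lower and 0 higher, with RYBP phase disruption 8 lower and 4 higher, with RYBP overexpression 1 lower and 0 higher, and in the libraries labelled DOX 8 lower and 1 higher. Of 18 genes of CAF-1, NuRD, SIN3 and related complexes that share RBBP4 and RBBP7, 12 were lower and 1 higher after Rybp knockdown, 72.2% in all beside 52.7% of all genes. Chaf1b, a CAF-1 subunit, had 79.8 and 79.2 CPM in shEV and 44.6 and 45.2 in shRybp ESCs (log2 fold change -0.82, standard error 0.058, edgeR BH-adjusted p = 1.07e-09). Of these 18, 9 were lower and 4 higher in Rybp-/- ESCs, 8 lower and 7 higher after Wdr5 knockdown, 6 lower and 0 higher with the TF-AA mutation, 8 lower and 1 higher with RYBP phase disruption, 0 lower and 1 higher with RYBP overexpression, and 5 lower and 7 higher in the libraries labelled DOX. In the same order 72.2, 83.3, 33.3, 50.0, 5.56 and 66.7% of them were called, beside 45.5, 63.0, 30.5, 33.0, 6.02 and 43.4% of all genes. With RYBP phase disruption DESeq2 called 5 of them lower and 0 higher. The H3K27 demethylase genes Kdm6a, Kdm6b and Uty, which act against PRC2, gave at most 2 calls in a table, among them a rise of Kdm6a after Wdr5 knockdown (log2 fold change 0.37, standard error 0.057, edgeR BH-adjusted p = 5.2e-06) and a fall of Uty, which lies on the Y chromosome, with the TF-AA mutation (log2 fold change -2.82, standard error 0.27, edgeR BH-adjusted p = 1.97e-08). Uty was also lower with RYBP phase disruption (log2 fold change -1.03, standard error 0.12, edgeR BH-adjusted p = 3.96e-08).

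Known Polycomb target genes of ESCs were called higher more often than lower in 6 of the 7 tables. Of the 30 on the list, 13 also stand on the lists of trophectoderm, primitive endoderm, neural or mesoderm markers, whose sums moved in the same libraries as given above, and their part in these counts was not separated by a test. In Rybp-/- ESCs 10 of the 23 tested were higher and 2 lower, after Rybp knockdown 13 of 24 and 2, after Wdr5 knockdown 12 of 23 and 7, with the TF-AA mutation 5 of 14 and 2, with RYBP phase disruption 9 of 22 and 1, and in the libraries labelled DOX 10 of 20 and 3. Higher calls made up 22.8, 26.8, 31.5, 14.4, 16.1 and 23.0% of all genes in these 6 tables, in the same order, and lower calls 22.7, 26.0, 31.5, 16.1, 17.0 and 20.4%. Among the targets on no marker list, a choice made after the values were seen, 6 of 13 tested were higher and 1 lower in Rybp-/- ESCs, 6 of 13 and 0 after Rybp knockdown, 7 of 12 and 4 after Wdr5 knockdown, 5 of 9 and 1 with the TF-AA mutation, 5 of 12 and 0 with RYBP phase disruption, and 5 of 10 and 2 in the libraries labelled DOX. With RYBP overexpression 0 of 14 passed the edgeR test. At an unadjusted p under 0.05 there were 1 higher and 3 lower, and DESeq2 called 1, lower. In the other tables DESeq2 called 9 higher and 2 lower in Rybp-/- ESCs, 12 and 2 after Rybp knockdown, 11 and 3 after Wdr5 knockdown, 3 and 1 with the TF-AA mutation, 4 and 1 with RYBP phase disruption, and 10 and 2 in the libraries labelled DOX. These genes are nearly silent, as Hand1, a regulator of trophoblast and heart that is also on the trophectoderm list, shows with 1.09 and 0.571 CPM in shEV and 9.10 and 9.16 in shRybp ESCs (log2 fold change 3.44, standard error 0.23, edgeR BH-adjusted p = 4.54e-10) and with 3.27 and 2.93 CPM in WT.RYBP and 19.3 and 20.6 with phase disruption (log2 fold change 2.68, standard error 0.17, edgeR BH-adjusted p = 5.77e-15). The median log2 fold change of the target list was 0.56 in Rybp-/- ESCs, 0.85 after Rybp knockdown, 0.29 after Wdr5 knockdown, 0.59 with the TF-AA mutation, 0.43 with RYBP phase disruption, -0.22 with RYBP overexpression and 0.78 in the libraries labelled DOX. The median of all genes tested lay between -0.01 and 0.02 in these tables.

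For each of 3 members, the genes with the most similar set of 7 log2 fold changes were sought among 13125 genes tested in every table, by Euclidean distance. Nearest to Ezh2 were Gm17659 (distance 0.14), a lincRNA, Bub1b (0.22), a mitotic checkpoint kinase, and Max (0.22), the partner of MYC. Near to Ezh1 were Ccdc111 (0.33) and Nhlrc3 (0.37), and nearest to Jarid2 were BC032203 (0.29), Nr5a2 (0.33) and Zfp518b (0.33). These distances describe the tables and were not tested, and tables that share the shEV libraries count in them more than once.

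Peaks were then examined at the members. A promoter was counted as marked if a peak lay within 2.5 kb of any annotated start of the gene, and the background is the share of 28028 counted and annotated genes. That background holds every annotated gene with a read in at least 1 table, coding or not and however low. All 10 members passed the filter on low counts, and no background of expressed genes was made. The lists come from merged replicates or from a single library, hold no depth and allow no test between groups, so fold enrichment is given only with its percentile within its own list. The RING1B lists of shEV and shStat3 ESCs and the STAT3 lists of Rybp+/+ and Rybp-/- ESCs each rest on 1 ChIP library. All 10 members had a promoter peak of H3K27ac, a mark of active promoters and enhancers, in Rybp+/+ ESCs (background 49.4%) and in Rybp-/- ESCs (52.5%). The same held for H3K4me3, a mark of active promoters (63.5% and 63.4%), and for WDR5 (41.5% and 43.8%). RING1B, the ubiquitin ligase of PRC1, was called at 10 members in the DOX- list of R1 ESCs with the Rybp_Stat3 integration (49.4%), at 8 in the DOX+ list (37.8%), at 8 in shEV (41.4%) and at 9 in shStat3 ESCs (37.4%). With stricter peaks, of −log10 q at least 2 and fold enrichment at least 4, these counts were 8 (background 39.6%), 5 (25.5%), 5 (28.8%) and 6 (27.5%). STAT3, the effector of LIF signalling, was called at 4 members in the DOX- list (8.03%) and at all 10 in the DOX+ list (52.4%), at 3 in Rybp+/+ ESCs (6.95%) and at 1 in Rybp-/- ESCs (5.91%). The DOX+ STAT3 list holds 30663 peaks and the DOX- list 2816, and the counts of members are to be read beside these sizes.

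The Ezh2 promoter stood out among the members between the Rybp+/+ and Rybp-/- lists. A H3K27ac peak over the window printed above, at chr6:47543398-47546798, had a fold enrichment of 22.3 (percentile 94.5) in Rybp+/+ ESCs, and the peak of Rybp-/- ESCs at chr6:47543685-47546578 had 42.2 (percentile 99.6). For H3K4me3 the fold enrichment was 35.3 (percentile 82.8) and 64.9 (percentile 98.9), and for WDR5 it was 3.90 (percentile 21.3) and 8.55 (percentile 80.2). Each mark was thus placed higher in the Rybp-/- list, in the ESCs where Ezh2 mRNA was lower. Ranked among the strongest promoter peaks of all genes present in both lists, Ezh2 moved up by 25.6 percentile points for H3K27ac, 44.7 for H3K4me3 and 57.9 for WDR5, and 97.4%, 98.7% and 99.2% of those genes had a smaller or more negative move. Whether this exceeds the spread between replicates could not be tested.

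Ezh1 moved down instead for H3K4me3, from a fold enrichment of 42.6 (percentile 88.8) at chr11:101086529-101088135 to 28.4 (percentile 74.7), beside its lower mRNA. Ranked among the promoters of genes present in both lists it moved by -33.2 points, and 4.6% of those genes had a more negative move. Its H3K27ac and WDR5 peaks moved by -6.6 and -4.4 points, with 27.0 and 38.2% of genes moving lower. Its RING1B peak stood at percentile 69.5 in the DOX- list and 3.2 in the DOX+ list, a fall of 46.5 percentile points among promoters, with 0.2% of genes moving lower. At Suz12 the WDR5 peak went from percentile 81.0 in Rybp+/+ to 47.3 in Rybp-/- ESCs among the promoters with a peak in both lists, a move of -33.7 points, with 7.2% of genes moving lower. Eed, Jarid2, Mtf2, Rbbp4 and Rbbp7 had H3K27ac peaks between percentiles 98.2 and 99.9 in both genotypes, and Aebp2 at 93.1 and 95.5. Across its 192.2 kb Jarid2 had 82 peaks of H3K27ac over 76.1 kb of its length in the Rybp+/+ list, and 70 over 50.0 kb in the Rybp-/- list.

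Phf19 was the member with the strongest RING1B. Its peak, over the start of the gene and the window printed above, stood at percentile 95.5 of the DOX- list (chr2:34767986-34770753), 94.3 of the DOX+ list, 80.9 in shEV and 89.4 in shStat3 ESCs, where the other members lay between 3.2 and 77.5. Its H3K27ac peak was the weakest of the members, at percentile 1.1 in Rybp+/+ ESCs (fold enrichment 2.24) and 68.9 in Rybp-/- ESCs (5.08). Ranked among the promoters of genes present in both lists, it stood at percentiles 0.2 and 15.7, a move of 15.6 points, and 89.8% of those genes had a smaller or more negative move. The H3K4me3 peak stood at 71.1 and 70.6. In the DOX+ list the STAT3 peak of Phf19 reached percentile 99.2 and that of Ezh2 97.2, the highest of the members.

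**Figure D5:**
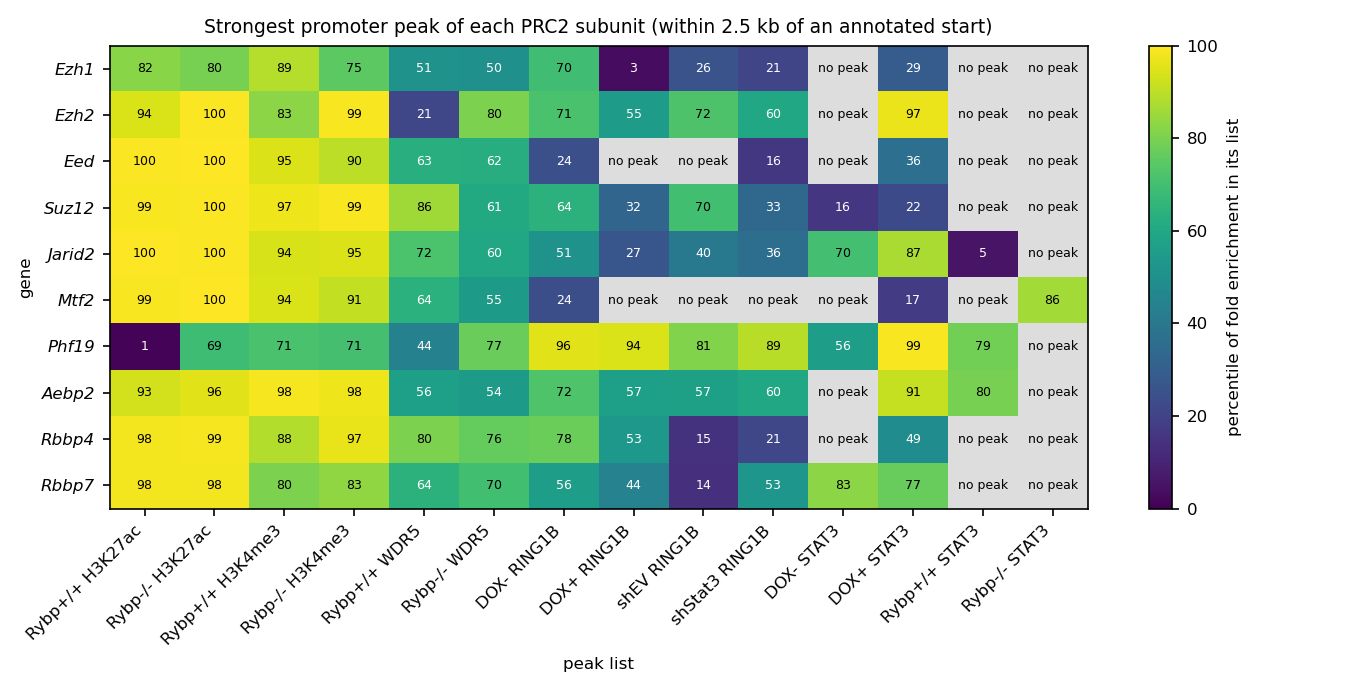
Percentile of fold enrichment of the strongest promoter peak of each PRC2 gene within its own list, for the 14 peak lists, as colour and rounded number. Ezh2 moves from 21.3 to 80.2 for WDR5 between the Rybp+/+ and Rybp-/- lists, and Phf19 has the highest RING1B percentiles.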

How the data were processed

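RNA-seq libraries were deposited by the authors as 7 tables of read counts per gene, unnormalized, made with Trim Galore, STAR and HTSeq on mm9. The gene length beside the counts is the authors' value. Columns headed NTC in the overexpression table were taken as the vehicle libraries, and 1 of the DOX columns of the rTRS table bears another prefix than the rest. ChIP-seq was deposited as 14 peak lists, called by the authors with MACS2 against input after Bowtie2 alignment and removal of duplicates. These lists give fold enrichment as a ratio and the q-value as −log10, per the file headers. Of the 96 samples of the series, only those with these tables and lists were used, and the other ChIP samples were not analysed here.

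The members and gene lists were chosen with earlier results of these data known. All 10 members were named in every table. Of the other lists, at most 2 genes per table were named, those with the largest absolute log2 fold change at an adjusted p under 0.05, and the 3 nearest genes were sought for Ezh2, Ezh1 and Jarid2, of which 1 is not reported here.

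Counts were fitted per table with edgeR 4.0.16 (R 4.3.3): filterByExpr, TMM scaling, the quasi-likelihood test and Benjamini-Hochberg adjustment over all genes. The scripts were tested on simulated data. Rows that name no gene held 13.7 to 58.5% of counts and were left out, and reads not aligned were 48.8 to 49.5% in the Wdr5, TF-AA and phase disruption tables. Alternatives were RLE and upper-quartile scaling, DESeq2 1.42.0, no filter, a replicate block, a fold change of at least 1.2, and each library left out. Symbols and starts came from the gencode vM1 annotation of mm9, which matched 37205 identifiers, and sequences from the mm9 genome. Depth allows counts of 79 or more behind every member value, and intervals cover the spread between 2 libraries.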

Additional observations from a re-analysis of the deposited data

Results flagged for a closer look

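For 9 of the 10 PRC2 members the log2 fold change in Rybp-/- R7.15 ESCs differed from that after Rybp knockdown in R1 ESCs, by the test of the difference itself in edgeR with Benjamini-Hochberg adjustment, which 40.5% of all 18203 genes passed (22.2% higher in the knockout). The difference, knockout minus knockdown, was 0.81 for Phf19, 0.79 for Eed, 0.64 for Rbbp4, 0.36 for Jarid2, 0.32 for Aebp2, 0.29 for Ezh2, 0.22 for Suz12 and 0.15 for Rbbp7. For Ezh1 it was -0.80. The call for Rbbp7 was lost in 8 of 10 alternatives. Mtf2 did not pass this test. Line, 4-OHT and method of Rybp loss cannot be told apart in these values.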

How the results depend on the processing

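Over 730 recomputed values of single members, 670 stayed on their side of the threshold, called or not, 45 lost their call, 15 gained one and 0 reversed. The test for a fold change of at least 1.2 is not among these. Upper-quartile scaling moved the median absolute log2 fold change of the members to 0.21 in the Rybp knockout and 0.27 in the Rybp knockdown. With a fold change of at least 1.2, the members and all genes called were 1 and 3036 in the Rybp knockout, 4 and 5027 in the Rybp knockdown, 4 and 6345 in the Wdr5 knockdown, 1 and 2308 with TF-AA, 3 and 1892 with phase disruption, 0 and 174 with overexpression, and 4206 genes in the rTRS line. DESeq2 called 2903 genes with TF-AA and 2659 with phase disruption. Leaving out 1 library at a time gave 1 to 6 members and 2724 to 4767 genes with TF-AA, and 0 to 6 members and 406 to 1566 genes with overexpression, where 0 remained without the first DOX library, 1 without the second and 6 without the second vehicle library. With TF-AA, 6 were called without the first WT ESC library and 1 without either TF-AA library. The cause was not tested. Stricter peaks left 5 members with a RING1B peak in the DOX+ list (25.5% of all genes) and in the shEV list (28.8%).

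With the replicate number as a block, 7, 8, 8, 4, 6, 5 and 9 members were called, and 7724, 9110, 9865, 5525, 5172, 1211 and 8559 genes, in the order Rybp knockout, Rybp knockdown, Wdr5 knockdown, TF-AA, phase disruption, overexpression and rTRS. Nothing in the labels says that equal numbers share a culture, and the correlation of same-numbered libraries was 0.00131, 0.0546, 0.0859, 0.266, 0.0345, 0.063 and 0.292, so the pairing was not used. With the block Mtf2 passed in the TF-AA table (-0.20, edgeR BH-adjusted p = 0.00882) and Suz12 in the rTRS table (-0.18, edgeR BH-adjusted p = 0.00047).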

Other observations

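Ratios of levels per kb of gene length describe the balance between alternative subunits, with no test and no cause. The ratio of Ezh2 to Ezh1 was 9.06 and 8.81 in shEV and 5.53 and 4.86 in shRybp ESCs. It was 6.42 and 5.40 in NTC and 3.28 and 3.65 in the libraries labelled DOX of the rTRS line, and in Rybp-/- ESCs it was higher than in the control, at 5.99 and 5.66 against 4.96 and 4.43. The ratio of Rbbp4 to Rbbp7 was lower in the perturbed libraries of all 7 tables, with the widest gap in the rTRS line, 0.381 and 0.386 in NTC and 0.196 and 0.194 in the libraries labelled DOX. With RYBP phase disruption the ratio of Eed to Suz12 was 1.11 and 1.18, against 1.83 and 1.77 in WT.RYBP. The ratio of the PRC2.1 genes Mtf2 and Phf19 to the PRC2.2 genes Jarid2 and Aebp2 was 0.882 and 0.852 there, against 0.686 and 0.684. It was also higher in the perturbed libraries of the Rybp knockdown, overexpression and rTRS tables. After Wdr5 knockdown it was lower, at 0.432 and 0.429 against 0.479 and 0.451, and in the Rybp knockout and TF-AA tables the groups overlapped.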
